A study of Arabidopsis thaliana with 9 samples.

Results

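The data described here are the 126 probe sets of the Affymetrix ATH1 array that form its block for the mitochondrial and plastid genomes, of 22746 probe sets tested. They were chosen by the leading number of the probe set name alone, and no measured value entered the choice. RNA came from the inflorescence stem of Arabidopsis thaliana plants at an age of 1.5 months. The 9 arrays fall into 3 groups of 3: the loss of function mutant ccr-1, an HCT-RNAi line and the wild type (WT), all in the Columbia-0 background. HCT and CCR1 are enzymes of monolignol synthesis, the pathway that makes the building blocks of lignin. The promoter of the RNAi construct and the number of lines or plants behind each array are not stated in the labels. The p-values therefore rest on the differences among the 3 arrays of a group, which may be technical.

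By the platform annotation and the gene tables used here, 74 members read plastid genes with 73 distinct names, since rps12 has 2 probe sets. Another 12 read mitochondrial genes, 5 carry names of nuclear loci, 1 reads both rps3 and rpl16, and 34 have no gene listed. The members without a listed gene are called by their probe set IDs. Columbia carries a large copy of mitochondrial sequence in its nuclear genome, so a probe set cannot tell an organelle transcript from a near-identical nuclear copy. The name suffix that marks probes shared between sequences is on 21 members. Of these, 6 are plastid members, each with 2 annotated copies on the plastid genome itself. The signal of 29 members lay in the dimmest 25% of all probe sets, 19 of them without a listed gene, and only 6 of the 29 were plastid genes. Mean log2 intensity in WT ran over the members between 3.35 and 14.4. Brightness depends on the probes, so the level of 1 probe set says nothing about another's.

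Plastids keep a small genome that encodes part of the photosynthetic complexes, part of the plastid ribosome, the core of a bacterial-type RNA polymerase and a few other proteins. Its genes are mostly transcribed together in clusters, first by phage-type polymerases encoded in the nucleus and then by the plastid's own polymerase with nuclear sigma factors, and RNA processing and decay set much of the final transcript level. The mitochondrial genome encodes subunits of the respiratory chain, proteins that mature c-type cytochromes, and open reading frames of unknown function. In a bulk stem sample, fewer cells of a type, fewer organelles per cell and less RNA per organelle cannot be told apart.

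The targeted genes were lower in their own lines. HCT fell by 3.53 on the log2 scale in HCT-RNAi and by 0.55 in ccr-1, and CCR1 fell by 1.81 in ccr-1 and by 0.76 in HCT-RNAi. Markers of other organs also differed between the samples. Of 8 seed storage genes, 8 rose in ccr-1 against WT with a median log2 difference of 9.24, and their summed log2 level was 16.2 to 16.25 on the ccr-1 arrays, 7.21 to 7.23 on the HCT-RNAi arrays and 7.21 to 7.32 on the WT arrays. Of 7 floral organ genes, 7 rose in both lines, with summed log2 levels of 11.35 to 11.44 in ccr-1, 9.84 to 9.88 in HCT-RNAi and 7.72 to 7.83 in WT. The pollen genes AGP6 and AGP11 summed to 9.4 to 9.6 in ccr-1, 7.85 to 7.91 in HCT-RNAi and 7.56 to 7.72 in WT. The 3 cellulose synthases of the secondary wall, which mark lignifying stem, were measured in all groups and summed to 12.15 to 12.25 in ccr-1, 12.34 to 12.56 in HCT-RNAi and 13.77 to 13.96 in WT. All probe sets of these marker lists are in the authors' deposited table, which holds probe sets selected on these arrays. Their directions are therefore no independent evidence. Over all probe sets 24.7% were called higher in ccr-1 and 32.9% in HCT-RNAi. The part of the marked organs in any difference below was not tested.

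The plastid members of ccr-1 varied more between arrays than those of the other groups. Their median standard deviation was 0.27 in ccr-1, 0.11 in HCT-RNAi and 0.08 in WT on the log2 scale, while over all probe sets it was 0.08 in ccr-1, 0.07 in HCT-RNAi and 0.07 in WT. Among the ccr-1 arrays, replicate 5 read above the group mean for 70 of 74 plastid members, with a median deviation of 0.28, while the medians were -0.21 in replicate 4 and -0.06 in replicate 6. The array's control probe set for 25S ribosomal RNA of the cytosol varied in the same group: its log2 intensity was 9.02 in replicate 4, 12.43 in replicate 5 and 11.53 in replicate 6 of ccr-1. It was 10.83, 11.66 and 11.0 on the HCT-RNAi arrays and 10.12, 11.09 and 11.28 on the WT arrays. In ccr-1, 47 of 74 plastid members (63.5%) had their arrays in the same order as this control, against 13.4% of all probe sets. In HCT-RNAi that share was 5.41% of the plastid members and 12.3% of all probe sets, and in WT 25.7% and 14.1%. Plastid members moved together between the ccr-1 arrays, so the 47 are not separate observations. Since 3 arrays have few possible orders, these shares are a description only. The difference between the 3′ and 5′ probe sets of actin, a sign of RNA integrity and labelling, was 3.86 ± 0.04 in ccr-1, 4.36 ± 0.02 in HCT-RNAi and 3.98 ± 0.06 in WT (SD, n = 3 each). For GAPDH it was 1.61 ± 0.05 in ccr-1, 1.78 ± 0.11 in HCT-RNAi and 1.46 ± 0.06 in WT (SD, n = 3 each). The part of these array differences in the results below was not tested, and ccr-1 results are given with the arrays left out in turn. The fit shares 1 spread per probe set over the 3 groups. Where ccr-1 arrays varied more than the others, the SE and adjusted p of a ccr-1 difference can therefore be too small.

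**Figure D1:**
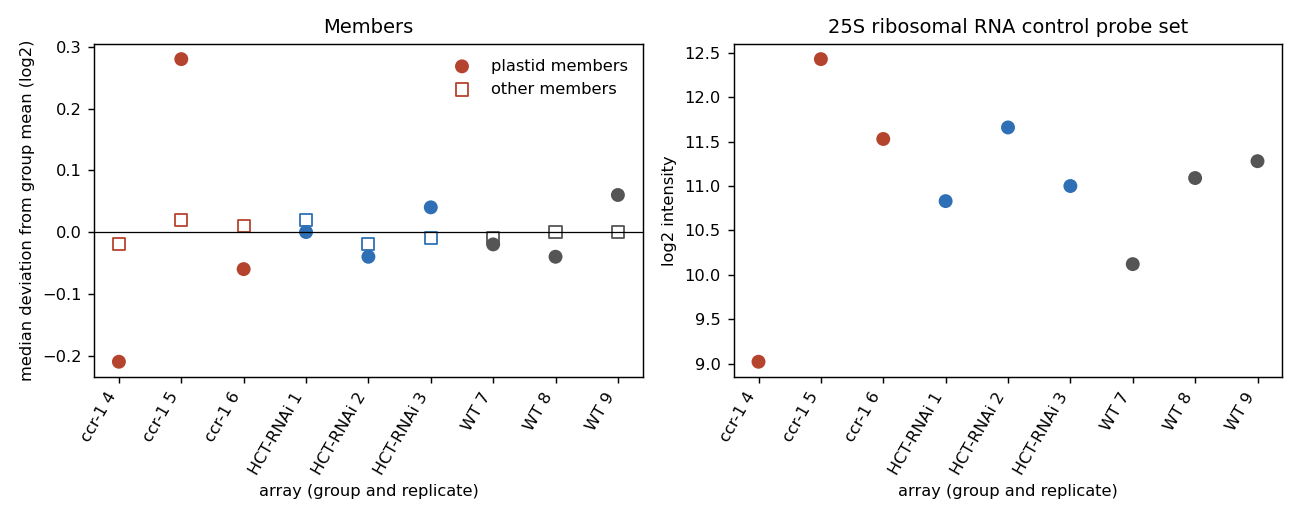
The left panel plots, for each of the 9 arrays, the median log2 deviation from the group mean of the 74 plastid members (circles) and of the other 52 members (squares); the right panel plots the log2 intensity of the 25S ribosomal RNA control probe set. Plastid members of ccr-1 spread between -0.21 and 0.28, and the control of that group between 9.02 and 12.43, while the other members stay within 0.02 of 0.

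The first comparison asked how organelle transcripts differ in ccr-1 stems. Plastid transcripts were mostly lower in ccr-1 than in WT: 42 of the 74 plastid members fell, 5 rose and 27 did not pass the test. The falls were spread over ribosomal proteins, the NDH complex, photosystem I and parts of photosystem II and ATP synthase. The rises were the 4 neighbouring genes psbE, psbF, psbL and psbJ and the gene ccsA. The median log2 difference of the plastid members was -0.34, beside -0.04 over all probe sets. Over all 126 members 64 were called (9 higher, 55 lower) at an adjusted p under 0.05 (limma, Benjamini-Hochberg over all probe sets), or 50.8% of them beside 54.9% of all probe sets. Calls were 24.7% higher and 30.1% lower over all probe sets, so the share of members called was near the background and the share called lower, 43.7%, was above it. A fall of at least 2-fold was called for 9 members (7.14%) beside 3.71% of all probe sets, and a rise of that size for 0 members beside 5.23%. The arrays of ccr-1 and WT did not overlap for 61 members (48.4%), beside 59.3% of all probe sets. The plastid count of lower calls was 35 without ccr-1 replicate 4, 50 without replicate 5 and 35 without replicate 6, and the plastid median was -0.53 without replicate 5. Of the 42 plastid members called lower, 34 were called in all 9 fits that leave out an array.

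Ribosomal protein genes of the plastid fell in ccr-1 in 15 of 20 probe sets (75.0%, beside 30.1% of all probe sets). None of these genes rose (beside 24.7%), and their median log2 difference was -0.66. Many belong to the long cluster that begins with rpl23 and ends with rpoA, in which 9 of 10 genes fell. For rpl16, of the large subunit, the values were 9.90, 10.06 and 9.89 in ccr-1, 11.43, 11.29 and 11.46 in HCT-RNAi and 11.27, 11.27 and 11.55 in WT. Every ccr-1 array lay below every other array, and the difference from WT was -1.41 ± 0.08 (SE, n = 3 per group; adjusted p = 2.1e-08). The large subunit gene rpl36 read 9.36, 10.01 and 9.90 in ccr-1 against 11.04, 11.10 and 11.10 in WT, a difference of -1.32 ± 0.13. In the same cluster rpl14 read 10.80, 10.97 and 10.85 in ccr-1 against 11.83, 11.81 and 11.90 in WT, a difference of -0.97 ± 0.07. Smaller differences in the cluster were those of rpl22 (-0.77), rpl23 (-0.69), rps19 (-0.49), rpoA (-0.45), rps3 (-0.39) and rpl2 (-0.15), which was not called. The member without a listed gene 244979_at fell as well, by 0.66 on the log2 scale (adjusted p = 1.66e-05).

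Outside that cluster, both probe sets of rps12, whose transcript is joined by trans-splicing, fell. The probe set 244939_at read 6.86, 7.83 and 7.10 in ccr-1 against 8.74, 8.70 and 8.81 in WT, and 244940_at read 9.92, 10.76 and 10.31 in ccr-1 against 11.47, 11.45 and 11.49 in WT. The differences were -1.49 ± 0.20 and -1.14 ± 0.16, and the arrays of the groups did not overlap in either probe set. The SD between arrays was 0.50 and 0.42 in ccr-1 against 0.06 and 0.02 in WT, so these SE, which share the spread of all groups, can be too small. The small subunit genes rps15 (-0.92), rps2 (-0.64) and rps7 (-0.61) fell too. In the authors' deposited table rps15 is the only one of the 16 members listed there that was not called present on all 9 arrays. Differences of rps4 (-0.01), rps14 (0.18), rps18 (0.04) and rpl32 (-0.26) did not pass the test. The falls of rpl20 (-0.71) and rpl33 (-0.37) were -0.28 and -0.21 without ccr-1 replicate 4. The call of rpl20 was lost in 8 of the 9 fits that leave out an array, all but that without ccr-1 replicate 5, and the call of rpl33 without HCT-RNAi replicate 2, ccr-1 replicates 4 or 6 or WT replicates 8 or 9. Of the 4 genes of the plastid RNA polymerase, rpoA, which ends the ribosomal cluster, fell by 0.45, and rpoC1 (-0.33), rpoC2 (-0.10) and rpoB (-0.14) were not called.

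The plastid NDH complex moves electrons around photosystem I and into plastoquinone. In ccr-1, 8 of its 11 members fell (72.7%, beside 30.1% of all probe sets), and none rose (beside 24.7%). The largest falls were in the cluster ndhC, ndhK and ndhJ, where all 3 were called. The array values of ndhK were 9.22, 9.96 and 9.44 in ccr-1, 10.92, 10.56 and 10.55 in HCT-RNAi and 11.14, 11.09 and 11.31 in WT. Its ccr-1 arrays lay below all others, with a difference from WT of -1.64 ± 0.16 (adjusted p = 1.69e-06). The adjacent ndhJ read 10.78, 11.22 and 10.91 in ccr-1, 12.08, 11.85 and 11.90 in HCT-RNAi and 12.30, 12.39 and 12.46 in WT, a difference from WT of -1.41 ± 0.10. The other gene of that cluster, ndhC, differed by only -0.26 ± 0.07. In the second NDH cluster ndhG (-0.95), ndhE (-0.88), ndhH (-0.54) and ndhA (-0.28) fell, while ndhI (-0.08) and ndhD (-0.23) were not called, and the call of ndhA was lost without HCT-RNAi replicate 2, ccr-1 replicates 4 or 6 or any of the WT arrays (-0.21 without ccr-1 replicate 6).

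Photosystem II genes moved in both directions in ccr-1: 4 of 13 rose, 4 fell and 5 were not called. The share was 30.8% each way, close to the 24.7% higher and 30.1% lower of all probe sets. The genes that fell were psbD and psbC, which encode the D2 protein and the inner antenna protein CP43, their neighbour psbZ (-0.72) and psbI (-0.35), which was not called without ccr-1 replicate 6 (-0.24, adjusted p = 0.052). For psbD the arrays read 8.51, 9.33 and 9.17 in ccr-1, 9.44, 9.25 and 9.40 in HCT-RNAi and 10.23, 10.19 and 10.38 in WT. Both lines lay below WT and overlapped each other, and the ccr-1 difference was -1.26 ± 0.16 (adjusted p = 2.26e-05). The values of psbC were 11.02, 11.53 and 11.32 in ccr-1, 11.97, 11.88 and 11.92 in HCT-RNAi and 12.43, 12.39 and 12.46 in WT, which gave 3 groups without overlap and a ccr-1 difference of -1.13 ± 0.10.

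The genes that rose were those of 1 cluster. It holds psbE and psbF, which encode the 2 chains of cytochrome b559, and psbL and psbJ, which encode small subunits of the same complex. For psbE the arrays read 12.28, 12.33 and 12.13 in ccr-1, 11.35, 11.37 and 11.36 in HCT-RNAi and 11.91, 11.92 and 11.82 in WT. Without overlap, ccr-1 lay above WT by 0.36 ± 0.06 (adjusted p = 0.000285) and HCT-RNAi lay below WT. For psbF the values were 13.37, 13.28 and 13.19 in ccr-1, 12.70, 12.61 and 12.66 in HCT-RNAi and 12.97, 12.85 and 12.93 in WT, with a difference of 0.36 ± 0.06 between ccr-1 and WT. The gene psbJ read 12.40, 12.36 and 12.05 in ccr-1, 11.53, 11.68 and 11.98 in HCT-RNAi and 11.86, 11.77 and 11.78 in WT, and its ccr-1 difference was 0.47 ± 0.11. The gene psbL read 11.05, 10.72 and 10.59 in ccr-1, 9.94, 9.88 and 10.30 in HCT-RNAi and 10.45, 10.40 and 10.45 in WT. Its ccr-1 difference, 0.35 ± 0.12 (adjusted p = 0.0246), was 0.22 without ccr-1 replicate 4, and the call was then lost (adjusted p = 0.113), as it was without any of the WT arrays. These 4 genes were higher on ccr-1 replicate 4 than on replicate 6, whereas the plastid members as a whole were lowest on replicate 4. The cluster psbB, psbT, psbH, petB and petD, by contrast, had 0 of 5 genes called, beside 54.9% of all probe sets. Its differences lay between -0.42 and 0.19.

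**Figure D2:**
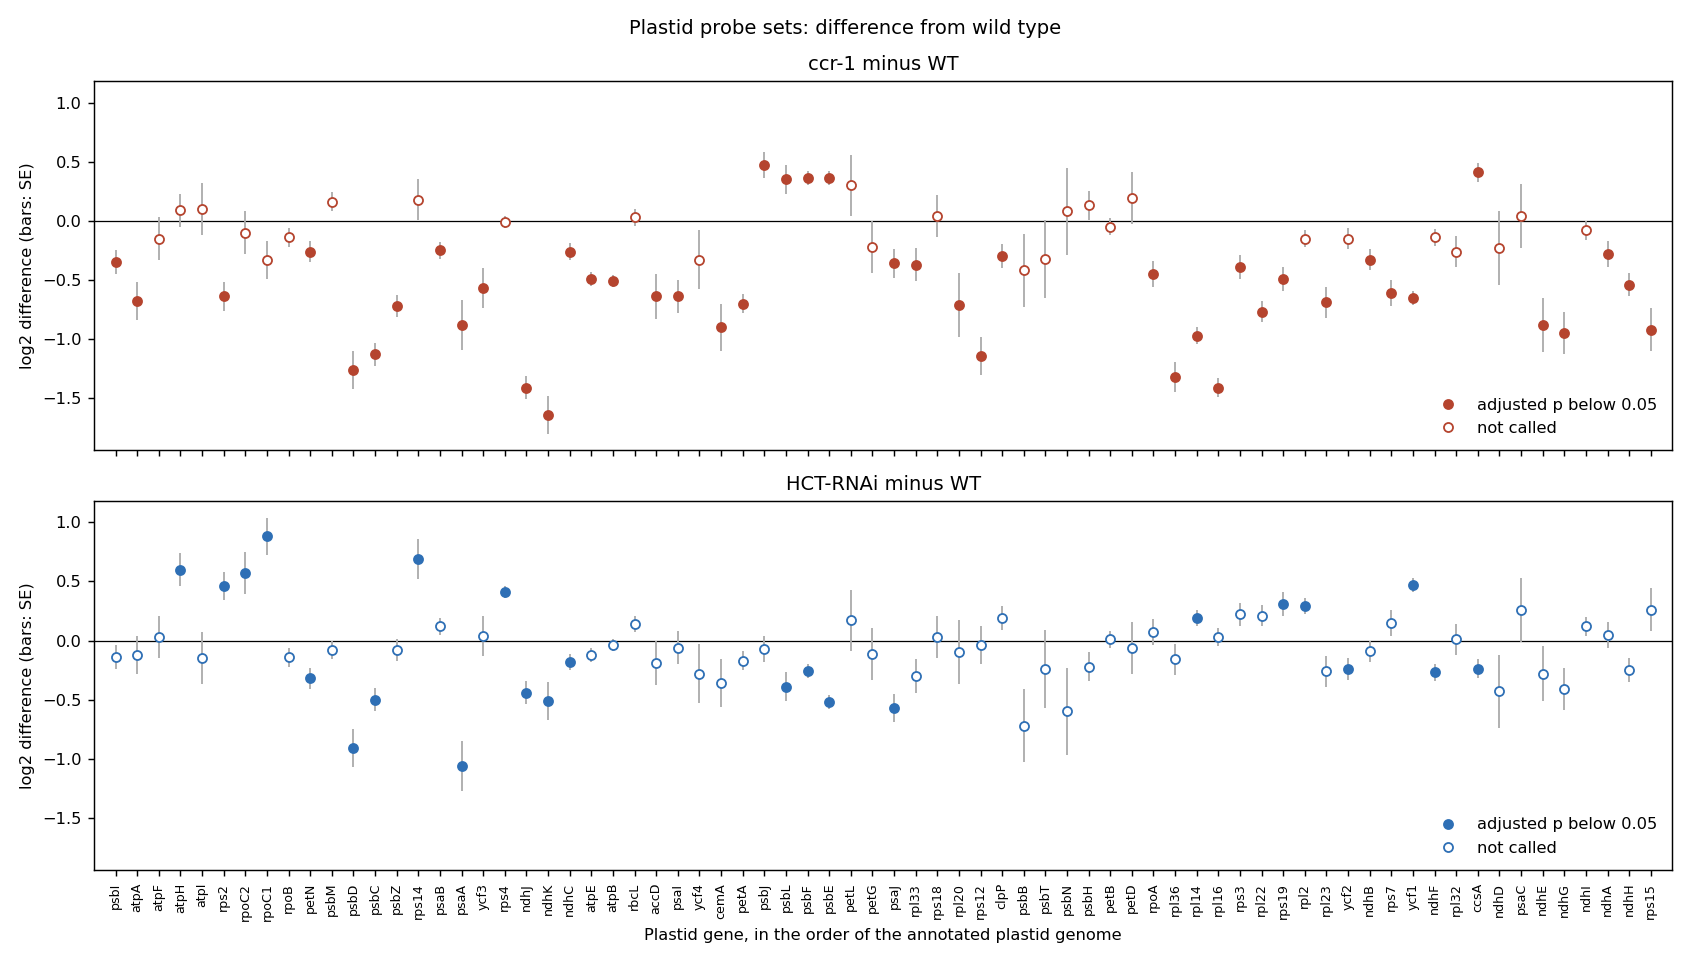
Log2 differences of 72 plastid genes from WT (points, with SE bars) in the order in which the genes lie on the plastid genome, for ccr-1 in the upper panel and HCT-RNAi in the lower one; filled points have an adjusted p below 0.05, and rps12 is drawn once. In ccr-1 the called rises are the neighbours psbJ to psbE and, apart from them, ccsA, and the lowest point drawn is ndhK at -1.64. In HCT-RNAi the highest point is rpoC1 at 0.88 and the lowest psaA at -1.06.

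Photosystem I fell in 4 of its 5 members in ccr-1 (80.0%, beside 30.1% of all probe sets). These were psaA (-0.88), psaI (-0.64), psaJ (-0.36) and psaB (-0.25), of which psaA and psaB encode the core proteins. The difference of psaA was -0.57 without ccr-1 replicate 4, and the call of psaJ was lost without that array (-0.29, adjusted p = 0.0785), ccr-1 replicate 6 or WT replicate 9. The difference of psaC was 0.04. Of the 6 genes of the plastid ATP synthase, atpB (-0.51) and atpE (-0.49), which are transcribed together, and atpA (-0.68) fell. The fall of atpA was 0.44 without ccr-1 replicate 4, while atpI (0.10), atpH (0.09) and atpF (-0.15) were not called. Of the 6 cytochrome b6f genes, petA (-0.70) and petN (-0.26) fell (33.3%, near the 30.1% of all probe sets), and petB differed by -0.05. The call of petN was lost without ccr-1 replicate 4 (-0.16, adjusted p = 0.0981), ccr-1 replicate 6 or WT replicates 7 or 9. The Rubisco large subunit gene rbcL read 12.01, 12.27 and 12.17 in ccr-1, 12.34, 12.28 and 12.17 in HCT-RNAi and 12.17, 12.11 and 12.09 in WT, so that all 3 groups overlapped and neither line differed from WT in the test.

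Among the other plastid genes, ccsA, whose product attaches heme to c-type cytochromes in the plastid, read 12.47, 12.76 and 12.52 in ccr-1, 12.00, 11.82 and 12.01 in HCT-RNAi and 12.15, 12.20 and 12.18 in WT. It was higher in ccr-1 than in WT by 0.41 ± 0.08 (adjusted p = 0.000752). The gene ycf1, which encodes a component of the protein import channel of the inner envelope, read 9.97, 10.21 and 10.04 in ccr-1, 11.18, 11.17 and 11.22 in HCT-RNAi and 10.74, 10.70 and 10.74 in WT. It fell in ccr-1 by 0.65 on the log2 scale (adjusted p = 2.49e-06). Lower calls were also made for cemA (-0.90), an envelope protein, accD (-0.64), a subunit of acetyl-CoA carboxylase, ycf3 (-0.57), a photosystem I assembly factor, and clpP (-0.30), a protease subunit. Without ccr-1 replicate 4, accD differed by -0.35, ycf3 by -0.42 and clpP by -0.19, and the calls of ycf3 and clpP were lost. Leaving out WT replicate 7 also ended the call of ycf3, and leaving out ccr-1 replicate 6 or any WT array that of clpP.

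**Figure D3:**
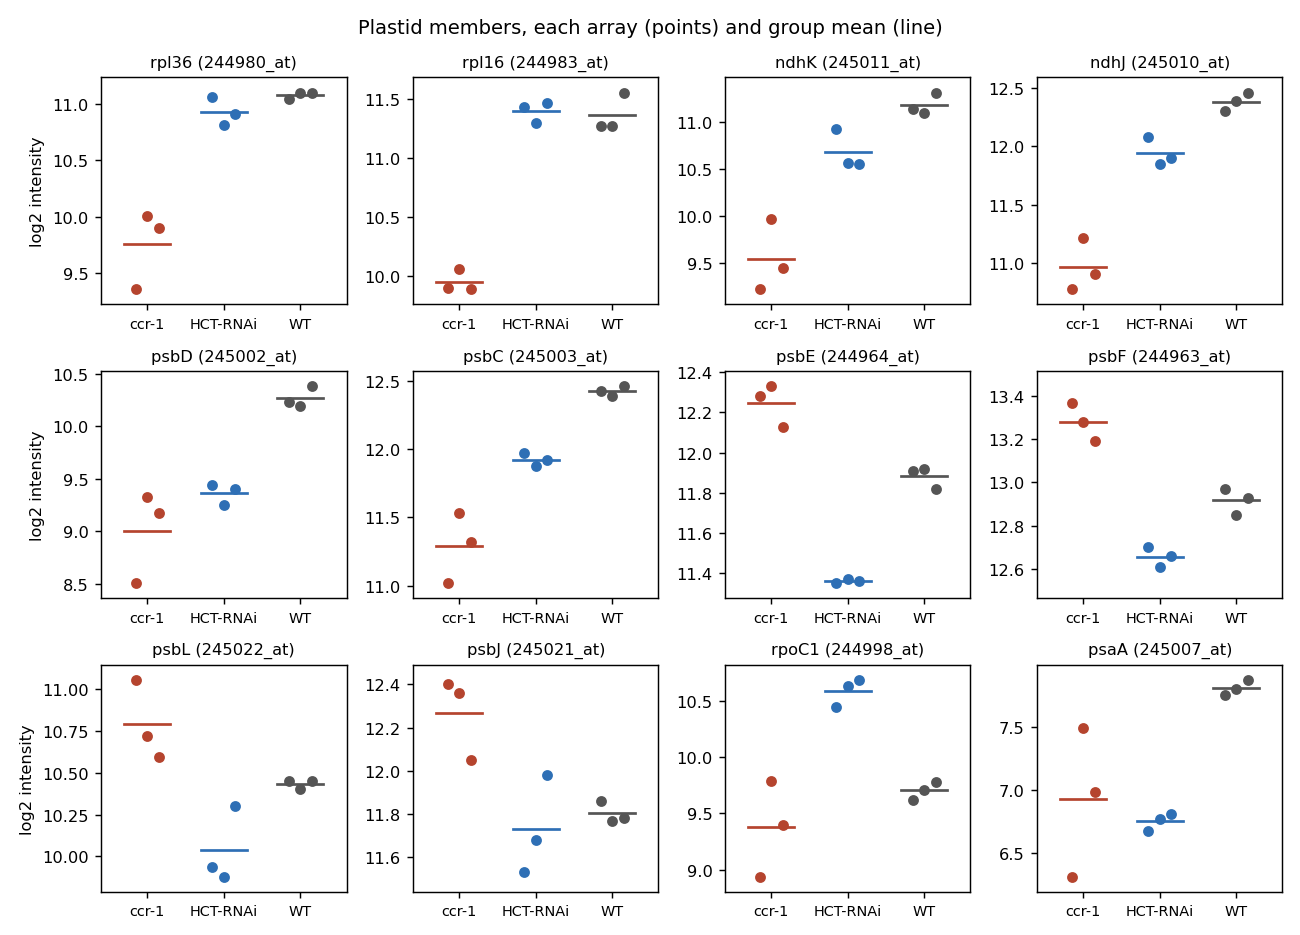
Log2 intensity of 12 plastid genes on each array (points) with the group mean (line) for ccr-1, HCT-RNAi and WT; each panel has its own axis, which spans at least 1 log2 unit. The ccr-1 arrays stand apart below the others for rpl16, rpl36, ndhK, ndhJ and psbC, and above them for psbE, psbF, psbL and psbJ, while the HCT-RNAi arrays stand above for rpoC1.

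The next comparison set the HCT-RNAi line against WT. Plastid members were called in both directions: 10 of 74 rose, 14 fell and 50 did not pass the test, with a median log2 difference of -0.10. The arrays of 44 of the 74 did not overlap those of WT, beside 43 of 74 in ccr-1, and the difference in the number of calls between the lines was not tested. Over all 126 members 53 were called (12 higher, 41 lower), or 42.1% beside 60.6% of all probe sets. The share called higher was 9.52% of the members beside 32.9% of all probe sets, and the share called lower was 32.5% beside 27.7%. Only 1 member, psaA, fell at least 2-fold, and 0 rose that far, beside 5.79% and 5.06% of all probe sets. The arrays of the 2 groups did not overlap for 76 members (60.3%), beside 66.6% of all probe sets. The spread shared by the fit includes the wider ccr-1 arrays: with only the HCT-RNAi and WT arrays fitted, 13 plastid members rose and 29 fell, and without ccr-1 replicate 5 the counts were 12 and 24. Centring each array on its median, which moves the median of all probe sets by 0.10 on the log2 scale here, gave 8 plastid members higher and 26 lower, beside 26.8% of all probe sets higher and 41.2% lower.

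The 10 plastid members that rose in HCT-RNAi were 2 polymerase genes, 6 ribosomal probe sets, atpH and ycf1. Of the 4 genes of the plastid RNA polymerase, rpoC1 and rpoC2, which encode its β′ and β″ subunits, rose. For rpoC1 the arrays read 10.44, 10.63 and 10.68 in HCT-RNAi against 9.62, 9.71 and 9.78 in WT, with no overlap and a difference of 0.88 ± 0.16 (adjusted p = 0.000378). For rpoC2 they read 8.20, 8.50 and 8.55 in HCT-RNAi against 7.76, 7.83 and 7.96 in WT. Its difference of 0.57 ± 0.18 (adjusted p = 0.0154) was not called without HCT-RNAi replicate 3 (0.50, adjusted p = 0.0595), without HCT-RNAi replicate 2 or without WT replicate 7. The gene rpoA differed by 0.07 and rpoB, whose signal was dim, by -0.14.

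Of the 20 plastid ribosomal probe sets, 6 rose in HCT-RNAi (30.0%, beside 32.9% of all probe sets) and 0 fell (beside 27.7%), with a median difference of 0.09; with each array centred on its median 4 rose, 3 fell and the median was -0.01. For rps14 the arrays read 6.65, 6.40 and 6.65 in HCT-RNAi against 5.76, 5.94 and 5.93 in WT, a difference of 0.69 ± 0.17 (adjusted p = 0.00361). For rps2 they read 9.71, 9.63 and 9.77 in HCT-RNAi against 9.33, 9.12 and 9.29 in WT, a difference of 0.46 ± 0.12. For rps4 they read 13.47, 13.48 and 13.45 in HCT-RNAi against 13.07, 13.02 and 13.06 in WT, a difference of 0.41 ± 0.05. In these 3 genes of the small subunit the 2 groups did not overlap. Smaller rises were called for rps19 (0.31), rpl2 (0.29) and rpl14 (0.19). The call of rps19 was lost with centred arrays (0.21, adjusted p = 0.0724) and without WT replicate 8, HCT-RNAi replicate 1 or HCT-RNAi replicate 3, and that of rpl14 without HCT-RNAi replicate 3 (0.13) or WT replicates 7 or 8. Also higher were atpH, the ring subunit of ATP synthase, which read 10.09, 10.02 and 10.01 in HCT-RNAi against 9.57, 9.30 and 9.45 in WT (0.60 ± 0.14), and ycf1 (0.47 ± 0.06).

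Of the 14 plastid members that fell in HCT-RNAi, 7 were photosystem genes, 4 belonged to the NDH complex, and the others were petN, ccsA and ycf2. The share called lower was 38.5% in photosystem II and 36.4% in the NDH complex, beside 27.7% of all probe sets. For psaA the arrays read 6.67, 6.77 and 6.81 in HCT-RNAi against 7.75, 7.80 and 7.87 in WT, a difference of -1.06 ± 0.21 (adjusted p = 0.000687). The gap between the 2 groups was several times the spread within either. The neighbouring psaB, which encodes the other core protein, differed by 0.12 and was not called. The gene psaJ fell by 0.57 on the log2 scale. Photosystem II had 5 of 13 genes lower and 0 higher: psbD (-0.91 ± 0.16), psbE (-0.52 ± 0.06), psbC (-0.50 ± 0.10), psbL (-0.39 ± 0.12) and psbF (-0.26 ± 0.06). The call of psbL was lost without HCT-RNAi replicate 2 (-0.31, adjusted p = 0.0618) or replicate 1. The NDH genes ndhK (-0.51), ndhJ (-0.44), ndhF (-0.27) and ndhC (-0.18) fell, as did petN (-0.32), ccsA (-0.24) and ycf2 (-0.24). The calls of 4 of these were lost when single arrays were left out: ndhC without HCT-RNAi replicates 1 or 2 or WT replicates 7 or 9 (lowest size -0.12), ndhK without HCT-RNAi replicates 2 or 3 or WT replicate 9 (-0.44), ccsA without HCT-RNAi replicate 2 or WT replicates 8 or 9 (-0.17), and ycf2 without HCT-RNAi replicates 1 or 3 or WT replicate 8 (-0.17). The differences of psbB (-0.72) and psbN (-0.60) were as large as several of these and did not pass the test, with ccr-1 arrays that spanned 6.19 to 7.97 for psbB and 7.14 to 9.22 for psbN.

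**Figure D4:**
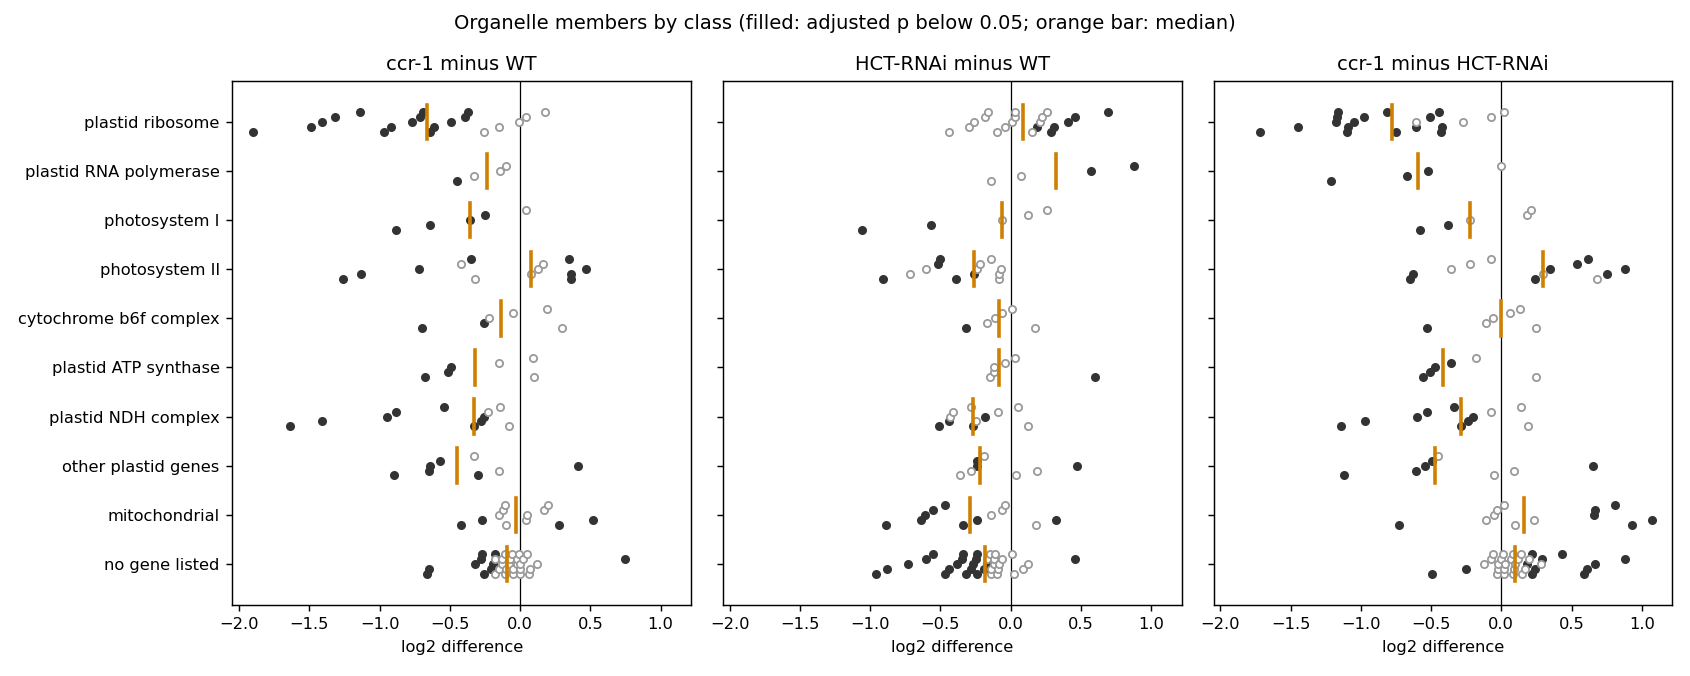
Log2 differences of the members by class for ccr-1 minus WT, HCT-RNAi minus WT and ccr-1 minus HCT-RNAi. Each point is a probe set, filled where its adjusted p is below 0.05, and orange bars are class medians. The gene rbcL and the 6 members of nuclear loci or several genes are not drawn. The plastid ribosome has a median of -0.66 in ccr-1 and 0.09 in HCT-RNAi against WT.

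Of the 12 mitochondrial members, 2 rose and 2 fell in ccr-1 against WT (16.7% each way, beside 24.7% higher and 30.1% lower of all probe sets), with a median of -0.03. In HCT-RNAi 1 rose (8.33%, beside 32.9%) and 7 fell (58.3%, beside 27.7%), with a median of -0.29. For cox2, a core subunit of cytochrome c oxidase, the arrays read 7.95, 8.10 and 7.85 in ccr-1, 6.86, 6.83 and 7.01 in HCT-RNAi and 7.45, 7.45 and 7.46 in WT. The 3 groups were apart: ccr-1 was above WT by 0.52 ± 0.07 (adjusted p = 4.14e-05), and HCT-RNAi differed from WT by -0.55 ± 0.07 (adjusted p = 1.97e-05). For nad4L, a membrane subunit of respiratory complex I, they read 6.84, 7.02 and 6.74 in ccr-1, 6.05, 5.90 and 5.86 in HCT-RNAi and 6.74, 6.84 and 6.91 in WT. Only HCT-RNAi stood apart, with -0.89 ± 0.08 against WT (adjusted p = 7.91e-07), and ccr-1 overlapped WT (0.04 ± 0.08). For nad6, another subunit of complex I, they read 5.54, 5.69 and 5.46 in ccr-1, 4.76, 4.89 and 5.02 in HCT-RNAi and 5.30, 5.30 and 5.48 in WT, and HCT-RNAi differed from WT by -0.47 ± 0.08.

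Other subunits of complex I did not follow that pattern. The gene nad4 read 9.22, 9.63 and 9.22 in ccr-1, 9.22, 9.24 and 9.31 in HCT-RNAi and 8.89, 9.14 and 9.20 in WT. Its ccr-1 difference of 0.28 ± 0.11 (adjusted p = 0.0469) was 0.14 without ccr-1 replicate 5 and 0.19 without WT replicate 7, and the call was also lost without WT replicate 8 or any of the HCT-RNAi arrays. The genes nad9 (-0.11 in ccr-1 and -0.06 in HCT-RNAi) and nad7, which was dim (-0.12 in ccr-1 and -0.14 in HCT-RNAi), were not called in either line. Of the 4 genes of cytochrome c maturation, ccb206 and ccb452 were lower in HCT-RNAi. For ccb206 the arrays read 5.98, 5.87 and 5.63 in ccr-1, 5.14, 5.07 and 5.31 in HCT-RNAi and 5.77, 5.77 and 5.80 in WT, and HCT-RNAi differed from WT by -0.61 ± 0.09. For ccb452 they read 8.62, 9.01 and 8.53 in ccr-1, 8.17, 7.75 and 7.80 in HCT-RNAi and 8.59, 8.54 and 8.50 in WT, with -0.64 ± 0.13 for HCT-RNAi. The gene ccb203 also fell in HCT-RNAi (-0.34 ± 0.10), a call that was lost without WT replicate 8 (-0.24, adjusted p = 0.0529).

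The fourth gene of that group, ccb382, went the other way. It read 7.86, 7.98 and 7.96 in ccr-1, 8.69, 8.60 and 8.71 in HCT-RNAi and 8.32, 8.33 and 8.40 in WT, with no overlap between any groups. It was lower in ccr-1 (-0.42 ± 0.06, adjusted p = 4.19e-05) and higher in HCT-RNAi (0.32 ± 0.06, adjusted p = 0.000384). The maturase gene matR was dim and was called lower in ccr-1 (-0.27) and in HCT-RNAi (-0.24), and both calls were lost without WT replicate 8 (-0.20 and -0.17), the ccr-1 call also without ccr-1 replicate 4 and the HCT-RNAi call without HCT-RNAi replicate 3. The difference of orfX was -0.15 in ccr-1 and -0.04 in HCT-RNAi.

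**Figure D5:**
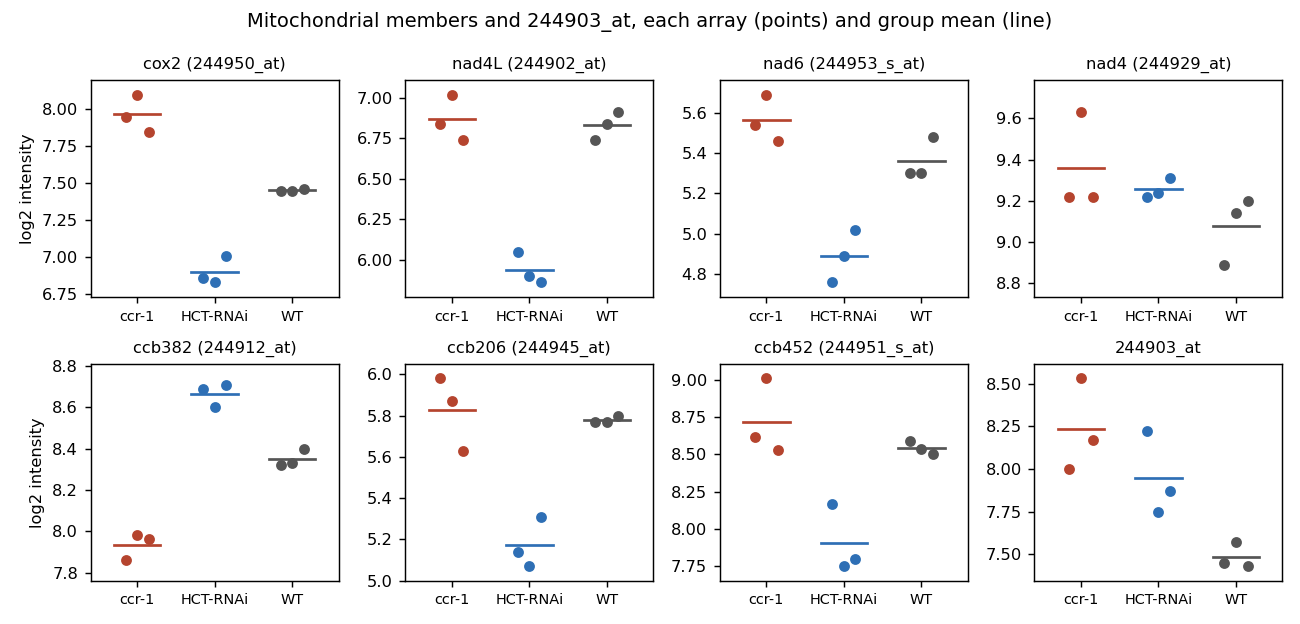
Log2 intensity of 7 mitochondrial genes and of 244903_at on each array (points) with the group mean (line) for ccr-1, HCT-RNAi and WT; each panel has its own axis. The HCT-RNAi arrays stand below the others for cox2, nad4L, nad6, ccb206 and ccb452 and above them for ccb382, and both lines stand above WT for 244903_at.

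The 34 members without a listed gene were mostly dim. In ccr-1 9 were called lower (26.5%, beside 30.1% of all probe sets) and 1 higher, and in HCT-RNAi 18 lower (52.9%, beside 27.7%) and 1 higher. The member that rose in both lines was 244903_at, which read 8.00, 8.53 and 8.17 in ccr-1, 8.22, 7.75 and 7.87 in HCT-RNAi and 7.45, 7.57 and 7.43 in WT. Both lines lay wholly above WT, by 0.75 ± 0.13 in ccr-1 (adjusted p = 0.0004) and 0.46 ± 0.13 in HCT-RNAi (adjusted p = 0.00964). The member 244906_at read 7.56, 7.54 and 7.46 in ccr-1, 6.77, 6.62 and 6.54 in HCT-RNAi and 7.59, 7.50 and 7.71 in WT, so that HCT-RNAi alone stood apart (-0.96 ± 0.07, adjusted p = 1.59e-07). The same held for 244901_at (-0.73) and 244921_s_at (-0.60). The member 244931_at read 5.02, 4.98 and 4.94 in ccr-1, 4.85, 4.74 and 4.69 in HCT-RNAi and 5.68, 5.48 and 5.74 in WT, and was lower in both lines, with differences of -0.65 ± 0.07 in ccr-1 and -0.88 ± 0.07 in HCT-RNAi. Of the 5 nuclear loci, AT2G07708 was the only one called higher in ccr-1 (0.31), and it was not called without ccr-1 replicate 5 (0.19, adjusted p = 0.137), ccr-1 replicate 4 or any WT array, while AT2G07751 (-0.41) and AT2G07732 (-0.31) were lower in HCT-RNAi. AT2G07732 was also called lower in ccr-1 (-0.19, adjusted p = 0.0255), and was not called there without WT replicate 7 (-0.14, adjusted p = 0.109), WT replicate 8 or ccr-1 replicate 6.

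Set directly against each other, the lines differed in 69 members (54.8%), beside 58.9% of all probe sets. In ccr-1 26 members were higher (20.6%, beside 25.4%) and 43 lower (34.1%, beside 33.6%), shares near those of all probe sets. With centred arrays 35 members were higher and 40 lower, beside 33% and 28.4% of all probe sets. A fall of at least 2-fold was called for 11 members (8.73%) beside 2.97%, and a rise of that size for 1, cox2 (0.794%), beside 4.8%. The arrays of the lines did not overlap for 64 members (50.8%), beside 63% of all probe sets. Plastid members were lower in 40 cases and higher in 7, with a median of -0.37, whereas the other 52 were higher in 19 cases and lower in 3, with a median of 0.12. All 10 genes of the long ribosomal cluster were lower in ccr-1, among them rpl16 (-1.45 ± 0.08), rpl36 (-1.17 ± 0.13) and rpl14 (-1.16 ± 0.07). Without ccr-1 replicate 4, 9 of the 10 were called, and rpl23 was the exception (-0.26, adjusted p = 0.0643). Also lower were rpoC1 (-1.21 ± 0.16), rps15 (-1.18 ± 0.18), ndhK (-1.14 ± 0.16), ycf1 (-1.12 ± 0.06), the rps12 probe set 244940_at (-1.10 ± 0.16) and rps2 (-1.09 ± 0.12). All 4 genes of the psbE cluster were higher in ccr-1: psbE by 0.88 ± 0.06, psbL by 0.75 ± 0.12, psbF by 0.62 ± 0.06 and psbJ by 0.54 ± 0.11. They were called in every fit that left out a ccr-1 array.

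Of the mitochondrial genes most of those that differed between the lines were higher in ccr-1. Of the 12, 5 were higher (41.7%, beside 25.4% of all probe sets). Only 1, ccb382 (-0.73 ± 0.06), was lower (8.33%, beside 33.6%). The 5 were cox2 (1.07 ± 0.07), nad4L (0.93 ± 0.08), ccb452 (0.81 ± 0.13), nad6 (0.67 ± 0.08) and ccb206 (0.66 ± 0.09). Among the members without a listed gene 244906_at (0.88 ± 0.07) and 244901_at (0.67 ± 0.06) were higher, and among plastid genes ccsA (0.65 ± 0.08). The 3 comparisons share arrays, so their results are not independent of each other.

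Genes next to each other on the plastid genome had more similar differences than plastid genes in general. Over 72 pairs of neighbouring genes the median gap between their log2 differences was 0.38 for ccr-1 against WT, beside 0.46 over all 2628 pairs. It was 0.26 beside 0.31 for HCT-RNAi against WT, and 0.37 beside 0.54 for ccr-1 against HCT-RNAi. These medians are a description, since genes of 1 cluster share transcripts. Within clusters the members still differed: psaA, psaB and rps14, which are transcribed together, had differences of -1.06, 0.12 and 0.69 in HCT-RNAi, and ndhC, ndhK and ndhJ had -0.26, -1.64 and -1.41 in ccr-1.

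Nuclear genes that serve organelle transcription could be named for only part of the lists used, in several cases only through the authors' deposited table, which holds probe sets selected on these arrays. Of 9 sigma factors and phage-type polymerases 4 were named. Of these SCA3, AT1G68990 and SIG4 are among the probe sets of the authors' table, so their directions are no independent evidence, and AT5G15700 is not. In ccr-1 3 of the 4 fell and 0 rose, with a median log2 difference of -0.48, and in HCT-RNAi all 4 rose, with a median of 0.70, beside 30.1% of all probe sets lower in ccr-1 and 32.9% higher in HCT-RNAi. SCA3, the phage-type polymerase RPOTp of the plastid, read 6.23, 6.32 and 6.39 in ccr-1, 7.75, 7.81 and 7.55 in HCT-RNAi and 6.69, 6.89 and 6.69 in WT, with no overlap of any groups. Its difference from WT was -0.44 ± 0.08 in ccr-1 (adjusted p = 0.000448) and 0.94 ± 0.08 in HCT-RNAi (adjusted p = 4.63e-07). The phage-type polymerase of mitochondria, AT1G68990, differed by -0.88 in ccr-1 and 0.71 in HCT-RNAi, and the sigma factor SIG4 by -0.53 in ccr-1 and 0.69 in HCT-RNAi. The polymerase of both organelles, AT5G15700, differed by 0.54 in HCT-RNAi and by -0.09 in ccr-1, which was not called.

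Of 13 proteins associated with the plastid polymerase only the iron superoxide dismutases FSD3 and FSD2 were named, and both rose, by 1.10 and 0.37 in ccr-1 and by 1.98 and 1.21 in HCT-RNAi. Both are among the probe sets of the authors' table, so their directions are no independent evidence and say nothing about the list. Of 10 genes of organelle RNA processing and decay only AT5G14580, the mitochondrial polynucleotide phosphorylase, was named, with 0.05 in ccr-1 (not called) and 0.61 in HCT-RNAi (adjusted p = 0.0014). Over all probe sets 24.7% were called higher and 30.1% lower in ccr-1, and 32.9% higher and 27.7% lower in HCT-RNAi. Beside these shares, counts from so few named genes are not a result about the lists of this paragraph. Nuclear genes of photosynthesis, of which 6 of 40 were named, had 0 higher and 2 lower in each line, with medians of -0.10 in ccr-1 and -0.02 in HCT-RNAi. The photosystem I gene PSAN fell by 0.36 in ccr-1 and by 0.52 in HCT-RNAi on the log2 scale. Nuclear genes of the respiratory chain, 8 probe sets of 7 of 21 genes, had 4 higher and 1 lower in ccr-1 and 2 higher and 2 lower in HCT-RNAi. Among them AT3G15640, a subunit of cytochrome c oxidase like the product of cox2, differed by 0.44 in ccr-1 (adjusted p = 7.34e-05) and by -0.20 in HCT-RNAi (adjusted p = 0.0181). It was the only gene of this list called in opposite directions in the lines. CYTC-2 was higher in both, by 0.45 in ccr-1 and 0.38 in HCT-RNAi. SDH2-2 was lower in both, with -0.25 in ccr-1 and -0.72 in HCT-RNAi. Of 6 genes of alternative respiration 2 were named, and 1 was called, higher in ccr-1.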

How the data were processed

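The authors deposited linear intensities, and their log2 values were used here. The submitters' processing notes name RMA and MAS5 without versions. RMA sets the arrays' distributions alike, so a change in total RNA cannot be seen. Per the labels' protocols RNA was labelled with biotin by the standard Affymetrix procedure. Organelle transcripts and ribosomal RNA carry few stable poly(A) tails, and the labels do not say how labelling was primed. The array medians of log2 intensity lay between 6.921 and 7.045.

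After removal of 64 array controls, 22746 probe sets were fitted with limma 3.58.1 in R 4.3.3 (lmFit on 9 arrays with 1 mean for each group, contrasts.fit, eBayes). A call is an adjusted p under 0.05 (Benjamini-Hochberg over all probe sets), and errors are SE of the fit unless marked SD. The code was tested on simulated data.

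Gene names come from GEO's annotation of the array (1 symbol for 90 members, several genes for 1, none for 35) with organelle and synonyms from a RefSeq gene table of TAIR10.1. The authors' deposited table lists 16 members with MAS5 detection calls. Of the plastid members 1 is counted and is not reported by name here. The rule for names took, per comparison, the 10 members with the largest called difference in each direction whose arrays do not overlap, and the members of the photosynthetic, respiratory and polymerase complexes by class. Members with the highest and lowest levels are given only as a range. The number in the probe set name alone set the members. The nuclear lists, and the choice to describe this block, were made with earlier results of these data known. Classes and transcription clusters were assigned after the values were seen, so they are counted and not tested. The members' sequences were not used here.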

Additional observations from a re-analysis of the deposited data

Results flagged for a closer look

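For 10 members the lines differed from WT in opposite directions, with both differences called, and the direct difference between ccr-1 and HCT-RNAi was called as well. Of these, 5 were higher in ccr-1 and lower in HCT-RNAi. The difference of ccr-1 minus HCT-RNAi was 1.07 for cox2 of mitochondrial cytochrome c oxidase, 0.88 for psbE, 0.75 for psbL and 0.62 for psbF of photosystem II, and 0.65 for ccsA of plastid heme attachment. The other 5 were lower in ccr-1 and higher in HCT-RNAi, with differences of -1.16 for rpl14, -1.12 for ycf1, -1.09 for rps2, -0.81 for rps19 and -0.73 for the mitochondrial cytochrome c maturation gene ccb382. The difference of psbL in ccr-1 against WT, those of psbL and ccsA in HCT-RNAi and those of rps19 and rpl14 in HCT-RNAi lost their calls when single arrays were left out. The contrary directions of psbE, psbF, cox2, ycf1, rps2 and ccb382 were called in every fit that left out an array. The lines share the WT arrays, so the differences from WT are not independent of each other. The share of all probe sets with such opposite calls was not counted. Against WT, 54.9% of all probe sets were called in ccr-1 and 60.6% in HCT-RNAi, so the count of 10 members is not shown to be unusual.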

How the results depend on the processing

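Alternatives were median centring of each array, quantile normalization, an intensity trend in eBayes, fits of only the 2 groups compared, omission of the dimmest 25% of probe sets, and omission of each array in turn. Over the members named for the largest differences, 793 repeats kept their direction and their side of the threshold, 19 lost the call (for rpoC2, rps19, psbL or nad4) and 0 turned direction. The named members were picked for large called differences without overlap on these same arrays. Keeping the call was therefore partly fixed by that choice. Over all members called, those called in each of the 9 fits that left out an array were 6 of 9 higher and 40 of 55 lower in ccr-1 against WT, 9 of 12 and 29 of 41 in HCT-RNAi against WT, and 17 of 26 and 34 of 43 in ccr-1 against HCT-RNAi. Centring, which shifts the median of all probe sets, gave 65 members lower in HCT-RNAi against WT (main 41), 26 plastid members lower (main 14) and a member median of -0.245 (main -0.145). It also turned the member median of ccr-1 minus HCT-RNAi, a value that was not tested, to 0.031 (main -0.043). Fitting only the 2 groups gave 29 plastid members lower in HCT-RNAi against WT and 2 other members higher in ccr-1 against WT (main 4). Without the dimmest 25% 7 other members were lower in ccr-1 against WT (main 13), where fewer members were tested. Apart from the construction of these alternatives, the cause was not tested.

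With each array left out, members called in HCT-RNAi against WT numbered 45 to 65 (36 to 51 lower), with 11 to 24 plastid members lower. In ccr-1 against WT they numbered 52 to 70 (45 to 63 lower), with 2 to 5 other members higher and a plastid median of -0.534 to -0.281, the lowest without ccr-1 replicate 5. Between ccr-1 and HCT-RNAi they numbered 58 to 78, with 6 to 11 plastid members higher, 3 to 5 other members lower and a member median of -0.118 to 0.02, positive without ccr-1 replicate 4. No paired analysis was possible because the replicate numbers of the 3 groups do not repeat. The signal of 29 members lay in the dimmest 25%, where RMA compresses differences, and the 3 arrays per group limit the precision.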
